A study of Mus musculus with 6 samples.

Results

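The night-against-day comparison on the high-fat diet with nobiletin (NOB) rested on 2 of the 6 deposited RNA-seq libraries, ZT18_HF.NOB and ZT6_HF.NOB. Both came from calf muscle of male C57BL/6 mice aged 24 to 26 months that had received a high-fat diet with 0.1% NOB for 5 to 6 months. They differed in the hour of collection, ZT6 in the resting phase and ZT18 in the active phase. The libraries were picked by their labels of diet, drug and time, and 20311 of the 26294 genes in the table, those with a mean of at least 1 over the 6 libraries, were read. The other 4 libraries came from mice of the same strain, sex and age on a regular diet (RD) or on the high-fat diet without the compound (HF) at the same hours. They share no library with the HF.NOB comparison, and their folds are set beside it. Each side was 1 library, so no difference given here has a replicate check or a test, and the labels do not say how many mice a library holds. The study's legend for its RNA-seq heat map gives an n above 1, which its methods say counts biologically independent samples. The table is titled as means, but each group has a single column, so the spread among mice is not seen here. Calf muscle holds fast and slow fibres with vessels, nerve, connective tissue and blood, and in such bulk RNA fewer cells of a type and less RNA per cell cannot be told apart.

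Muscle keeps time with the same loop as other tissues. BMAL1 (gene Arntl) and CLOCK switch on the Per and Cry genes and the REV-ERB receptors (Nr1d1, Nr1d2). PER and CRY proteins then block BMAL1 and CLOCK, while REV-ERBs and RORs compete at the same elements, REV-ERBs silencing and RORs activating Arntl and Nfil3. NOB is a citrus flavonoid that binds RORs as an agonist, and mice, being nocturnal, eat and run mainly in the dark, so fuel genes of muscle also differ between the hours.

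The 2 libraries held 23248663 reads on genes at ZT6 and 31837501 at ZT18, the lowest and the highest of the 6. The deposited values are reads times 1 factor per library, here called scaled read counts, and 1 read was worth 1.33 at ZT6 and 0.956 at ZT18. All 10 skeletal muscle markers fixed for the check of tissue were present, and their summed value was 5147760 at ZT6 and 4769780 at ZT18, with a range of 4037560 to 5438400 over the 5 libraries other than ZT6_HF.NOB. The ZT6_HF.NOB library stood apart. Among 11766 genes averaging 50 or more, it lay more than 2-fold below every other library for 429 genes and more than 2-fold above every other for 43, whereas no other library did so for more than 9 genes in either direction. Its counts also leaned to short transcripts. Over 10006 protein-coding genes averaging 100 or more, the log2 fold of ZT18 over ZT6 on HF.NOB had a Spearman rho of 0.74 with the length of the longest annotated transcript, against 0.02 on RD and -0.00 on HF. These correlations are across genes of the same libraries and describe them only. The median log2 fold as deposited ran from -0.88 for transcripts of 500 to 1000 bases to -0.15 for 2000 to 4000, 0.83 for 8000 to 12000 and 1.20 above 12000.

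Folds were therefore read on 2 scales, and most are given on the length-relative one. The fold as deposited is the log2 ratio of scaled read counts after adding 1. The length-relative fold is that value minus the median fold of genes of similar length, a reference that ran from -0.85 to 1.03 on HF.NOB and stayed within 0.06 of 0 on RD and HF. What moved with length in the ZT6 library was not tested. The reference is flat at both ends, so that some of the trend is left there. Among the same protein-coding genes the length-relative median was -0.23 under 500 bases, -0.07 for 500 to 1000 and 0.17 above 12000, and between -0.02 and -0.00 for the lengths in between. Unless another scale is named, the counts of genes past 1.5-fold that follow are on the length-relative scale. They are to be read against the 21.7% of all genes that were past it upwards and the 12.3% downwards. Both shares include many genes of low counts. Among genes averaging 50 or more they were 7.73% and 7.35%, the closer measure for lists of abundant genes.

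**Figure D1:**
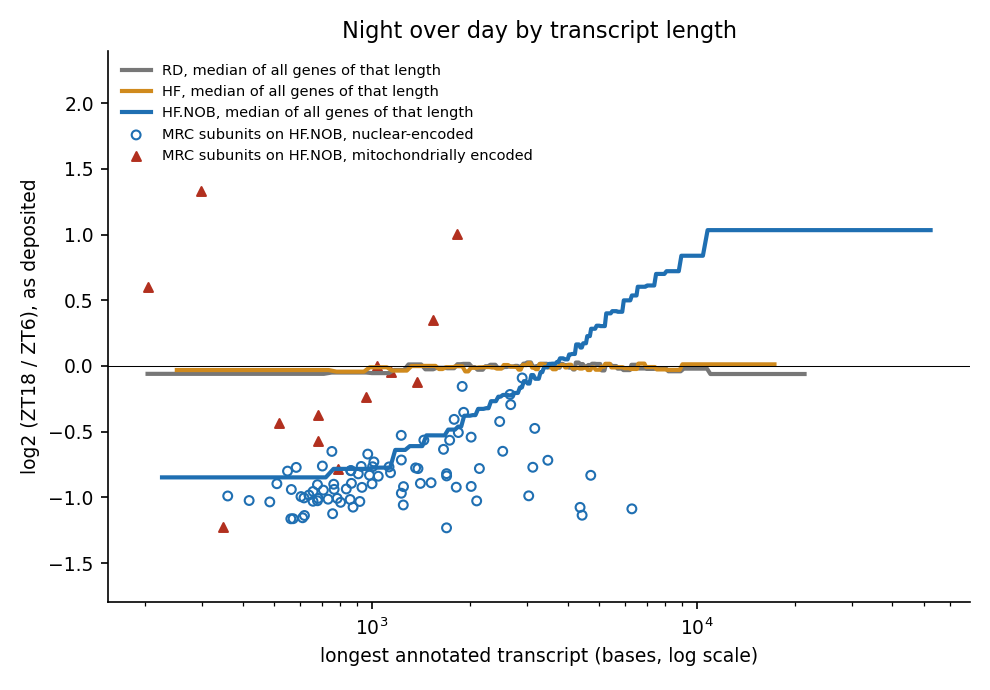
Median log2 ratio of ZT18 over ZT6 as deposited (vertical axis) against the length of the longest annotated transcript (horizontal axis, log scale) for RD, HF and HF.NOB, with the subunits of the mitochondrial respiratory chain on HF.NOB as points. The HF.NOB line runs from -0.85 to 1.03 while the lines of RD and HF stay flat. Most nuclear-encoded subunits (open circles) lie at the short end near or below the HF.NOB line. A few with longer annotated transcripts, such as Atp5l (6310 bases) and Ndufb7 (4435 bases), lie far below it. Most mitochondrially encoded subunits (triangles) lie above it.

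As deposited, 4750 genes passed 1.5-fold upwards at ZT18 on HF.NOB, 23.4% of the genes read, and 4355 passed it downwards, 21.4%. Relative to genes of similar length, 4374 of 20198 genes with a known length passed 1.5-fold upwards (21.7%) and 2490 downwards (12.3%), while 54.3% were higher by any amount. The matching shares were 11.2% and 11.8% on RD and 12.5% and 9.97% on HF. Much of the HF.NOB count lay in low counts. For genes with few reads the added 1 holds the fold near level, but the full length reference is still subtracted. A short transcript, whose reference went down to -0.85, could thus pass 1.5-fold upwards with no difference in reads. A long one, whose reference went up to 1.03, could likewise pass it downwards. Among the 11737 genes averaging 50 or more, 907 were length-relatively higher (7.73%) and 863 lower (7.35%), while among the 5437 genes averaging 1 to 10, 46.2% were higher and 21.2% lower. Of the 4374 genes higher on HF.NOB, 919 (21.0%) were also past 1.5-fold higher on RD and 1030 (23.5%) on HF, and 290 (6.63%) on both. The 919 make up 40.5% of the genes higher on RD, and the 1030 make up 40.9% of those higher on HF. Of the 2490 lower genes, 498 were lower on RD, 415 (16.7%) on HF and 129 (5.18%) on both. The 498 make up 20.8% of the genes lower on RD, and the 415 make up 20.6% of those lower on HF.

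The promoters of 5 clock genes whose folds recur through the results are shown to place the elements that BMAL1 with CLOCK, the RORs and the PAR bZIP factors are known to read. Ciart and Nfil3 were added after their values were seen. Each window runs 250 bases before to 50 after a start site in RefSeq (GRCm38.p6), and capitals mark matches on either strand to an E-box (CACGTG), to the core of a ROR element (AGGTCA, printed as TGACCT where it is on the other strand) or to a D-box core (TTATGNAA), motifs that do not overlap here.
Ciart, chr3:95882179-95882478, minus strand: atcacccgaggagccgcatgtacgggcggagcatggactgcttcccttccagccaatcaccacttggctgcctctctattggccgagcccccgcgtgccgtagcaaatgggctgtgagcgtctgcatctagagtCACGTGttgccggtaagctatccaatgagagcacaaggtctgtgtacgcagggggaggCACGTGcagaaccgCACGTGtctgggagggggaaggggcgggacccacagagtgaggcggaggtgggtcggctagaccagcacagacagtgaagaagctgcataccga
Nfil3, chr13:52980990-52981289, minus strand: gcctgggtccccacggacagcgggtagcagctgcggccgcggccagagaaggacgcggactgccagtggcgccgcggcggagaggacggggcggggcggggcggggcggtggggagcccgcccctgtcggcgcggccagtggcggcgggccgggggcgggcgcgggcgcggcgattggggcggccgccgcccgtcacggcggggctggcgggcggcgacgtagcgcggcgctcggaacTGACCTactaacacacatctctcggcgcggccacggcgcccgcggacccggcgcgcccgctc
Arntl, second window, chr7:113207261-113207560, plus strand: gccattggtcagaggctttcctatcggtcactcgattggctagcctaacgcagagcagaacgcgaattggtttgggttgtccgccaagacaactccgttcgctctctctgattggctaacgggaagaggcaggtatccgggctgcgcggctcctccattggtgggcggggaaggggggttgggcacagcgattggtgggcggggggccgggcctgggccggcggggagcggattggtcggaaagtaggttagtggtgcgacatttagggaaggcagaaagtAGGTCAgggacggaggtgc
Dbp, chr7:45704997-45705296, plus strand: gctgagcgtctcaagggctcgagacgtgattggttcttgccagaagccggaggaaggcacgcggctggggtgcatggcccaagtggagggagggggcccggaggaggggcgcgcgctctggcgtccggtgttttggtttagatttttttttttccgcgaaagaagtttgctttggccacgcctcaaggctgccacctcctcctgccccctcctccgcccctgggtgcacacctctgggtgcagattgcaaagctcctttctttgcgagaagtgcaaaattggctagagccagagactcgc
Nr1d1, chr11:98775328-98775627, minus strand: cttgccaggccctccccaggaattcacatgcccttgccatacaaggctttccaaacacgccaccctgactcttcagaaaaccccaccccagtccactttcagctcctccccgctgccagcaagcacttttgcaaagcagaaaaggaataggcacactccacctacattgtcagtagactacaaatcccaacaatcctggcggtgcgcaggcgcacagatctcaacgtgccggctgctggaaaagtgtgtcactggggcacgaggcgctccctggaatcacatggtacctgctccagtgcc
The Ciart window holds 3 E-boxes, the nearest starting 44 bases before the start site, and the Nfil3 window holds 1 ROR core. The second Arntl window is printed as the one with a match, and its ROR core begins 31 bases after the start site. The windows of Dbp and Nr1d1 hold none of the letters searched. Of the 19 core clock genes, 16 had a window, and in their first windows an E-box was found in 5, a ROR core in 3 and a D-box core in 2. Over all 27025 windows the shares were 7.24%, 16.0% and 3.52%. Per2 and Bhlhe40 had no window. A match is a string of letters and not evidence of binding.

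Among the activators of the clock, Arntl was higher at night. It stood at 637, 330.4 and 509 at ZT6 on RD, HF and HF.NOB and 1021, 775 and 978 at ZT18, so that every night library exceeded the day library of its own diet. On HF.NOB the fold as deposited was 0.94 with a 95% interval of 0.77 to 1.11, which comes from the exact Clopper-Pearson interval of the read ratio and, like all intervals here, covers counting error only. Its length-relative fold was 0.89, between those of RD (0.67) and HF (1.24). Clock, the partner of BMAL1, was 757 at ZT6 and 1631 at ZT18 on HF.NOB, a fold as deposited of 1.11 that came to 0.27 relative to length, as genes near its 9744 bases had 0.84. The other 4 libraries held 1424 to 1651, so the day library of HF.NOB was the low one. Npas2, which can replace CLOCK, had only 20 and 30 reads, its length-relative fold was -0.06, and the counting interval of its fold as deposited spans 0.

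The repressors that BMAL1 and CLOCK drive were mixed. Ciart, which encodes a repressor of BMAL1 and CLOCK, had the largest night-to-day difference among them on HF.NOB, with 356, 285 and 201 at ZT6 on RD, HF and HF.NOB and 36.2, 49.6 and 57.4 at ZT18. Its length-relative fold was -1.41 on HF.NOB, -3.28 on RD and -2.46 on HF. The day level on HF.NOB was the lowest of the 3 days and the night level the highest of the 3 nights, though no night library reached any day library. Bhlhe41 (DEC2) was 1707 at ZT6 and 996 at ZT18, a length-relative fold of -1.28 against -0.44 on RD and -0.98 on HF. Its relative Bhlhe40 (DEC1) was 4904 at ZT6 and 3271 at ZT18, and its length-relative fold of -0.52 was smaller than those on RD (-1.14) and HF (-1.06).

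The Per genes separated. Per1, the member quickest to respond to hormones and activity, was 1055 at ZT6 and 709.6 at ZT18, a length-relative fold of -0.80 on HF.NOB with -0.25 on RD and -0.74 on HF. Per2 was 380.1 at ZT6 and 572 at ZT18, 0.59 as deposited and 0.18 relative to genes of its length. Per3 was nearly level as deposited (720.1 at ZT6 and 802 at ZT18), with a length-relative fold of -0.34 where RD had -0.91 and HF -0.97. Of the cryptochromes, Cry1 was somewhat higher at night on every diet. It had 520.1 at ZT6 and 621 at ZT18 on HF.NOB and a length-relative fold of 0.39, against 0.68 on RD and 0.38 on HF. Cry2 was close to level, with 0.09 on HF.NOB.

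The receptors that set the arm on which NOB acts showed a smaller difference on HF.NOB than on the other diets for REV-ERBα, and a difference for RORα that rests on its length. Nr1d1, which encodes REV-ERBα, on chromosome 11 at 98767932 to 98775333 (GRCm38), stood at 6267, 4831 and 3818 at ZT6 on RD, HF and HF.NOB and 1467, 1138 and 1959 at ZT18. Day exceeded night on every diet, but the ratio as deposited was 1.95 on HF.NOB, and the length-relative fold was -0.74 there against -2.09 on RD and -2.08 on HF. Both sides contributed, since the HF.NOB day level was the lowest of the days and its night level the highest of the nights. Nr1d2 (REV-ERBβ) gave -0.44 on HF.NOB, -0.53 on RD and -0.60 on HF. Rora (RORα) had 2607 at ZT6 and 5284 at ZT18, a fold as deposited of 1.02, but genes as long as its 10878-base transcript had 1.03 and its length-relative fold was -0.02. With the mean length of its transcripts in place of the longest this became 0.70 and with the principal transcript 1.16, so the direction of Rora depends on the length assigned to it. Rorb was near the floor, with 6 and 8 reads.

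Output factors gave the largest clock difference. Dbp, a PAR bZIP activator of D-box genes and a direct BMAL1 target, was 1983, 2234 and 1878 at ZT6 on RD, HF and HF.NOB and 326, 398 and 304 at ZT18. Night and day did not overlap, and the 6.16-fold lower night value on HF.NOB (log2 -2.62, interval -2.81 to -2.45) came to a length-relative fold of -2.16, beside -2.61 on RD and -2.48 on HF. Nfil3 (E4BP4), the repressor that competes with Dbp at D-boxes, was higher at night, at 332, 306 and 677 at ZT6 on RD, HF and HF.NOB and 1535, 1197 and 1283 at ZT18. Its length-relative fold was 1.29 on HF.NOB, 2.21 on RD and 1.98 on HF, and the HF.NOB day level was about 2 times that of the other days while its night level lay between the other nights. Tef and Hlf, the other PAR bZIP factors, had length-relative folds of -0.22 and -0.02.

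Over the 19 core clock genes, 2 were past 1.5-fold higher and 5 lower at night relative to genes of similar length, where 21.7% and 12.3% of all genes were. As deposited, 5 were past 1.5-fold higher and 4 lower. Their median was -0.06 on HF.NOB, -0.25 on RD and -0.30 on HF, beside 0.05 for all genes on HF.NOB. For 14 of the 19 RD and HF went one way, and HF.NOB went that way in all 14. In 8 of these (Ciart, Nr1d1, Nr1d2, Per3, Bhlhe40, Hlf, Nfil3 and Dbp) the HF.NOB difference was smaller than on both other diets, and in 2 (Per1 and Bhlhe41) it was larger. Of the 7 genes past 1.5-fold one way on both RD and HF, 5 were past it on HF.NOB. A gene picked for large folds on 2 diets tends to be smaller on another, and whether the diets differ could not be tested with 1 library a side. The 8 kinases, ligases and cofactors of the clock were close to level, with a length-relative median of -0.11. Usp2, a deubiquitinase that cycles with the clock, gave -0.31, -0.31 and -0.34 on HF.NOB, RD and HF, and on HF.NOB its direction turned under another length, to 0.08. The directions of Cry2, Npas2, Tef and Hlf, all near level, also turned under an alternative.

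**Figure D2:**
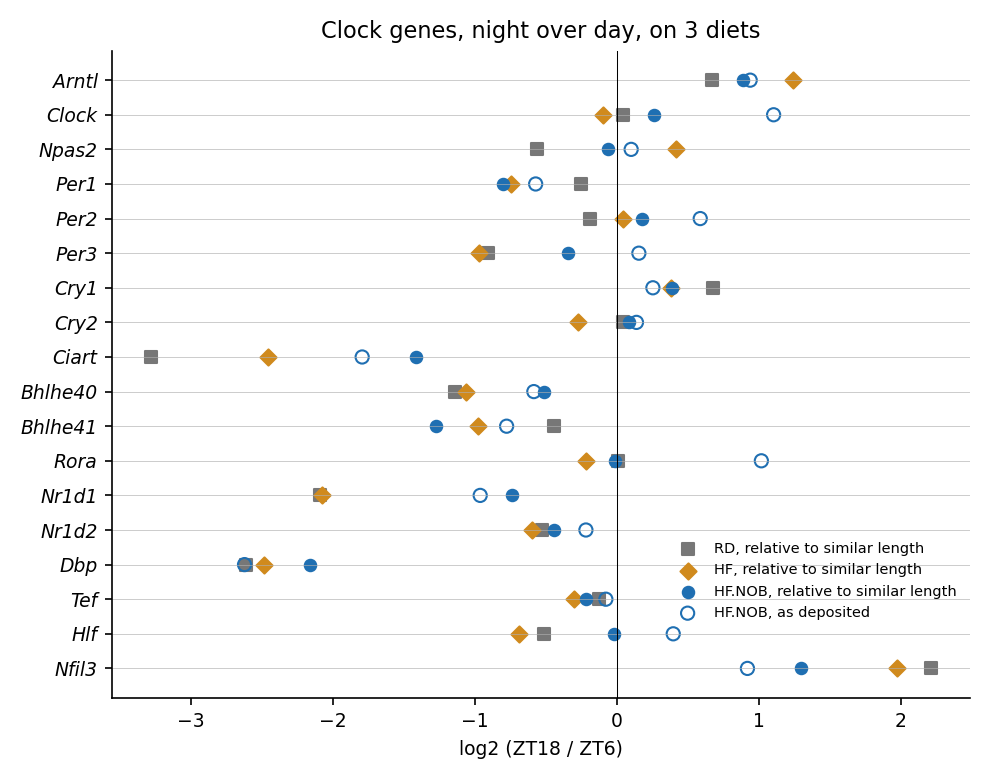
Log2 ratio of ZT18 over ZT6 for 18 of the 19 core clock genes (rows), relative to genes of similar length on RD (squares), HF (diamonds) and HF.NOB (filled circles), and as deposited on HF.NOB (open circles). Each point is 1 library over 1 library with no error bar. Dbp and Ciart lie far to the left and Nfil3 and Arntl to the right on all 3 diets, Nr1d1 lies near -0.74 on HF.NOB and near -2.1 on both others, and open and filled circles part most for the long transcripts of Clock and Rora.

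Selection on 2 diets and reading on the third was done in all 3 ways, among genes averaging 50 or more. Of 89 genes past 1.5-fold higher at night on RD and HF, 60 were higher on HF.NOB, 35 of them past 1.5-fold, with a median length-relative fold of 0.42 against 0.93 on each of the diets that chose them. The same reading gave 57 of 73 and a median of 0.47 on RD, and 53 of 60 and a median of 0.69 on HF. Of 37 genes lower on RD and HF, 25 were lower on HF.NOB with a median of -0.22, beside 25 of 29 and -0.25 on RD and 23 of 36 and -0.17 on HF. The third diet thus gave smaller medians than the choosing diets whichever it was.

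Genes higher at night on all 3 diets, ranked by their smallest length-relative fold, began with Odf3l2, which encodes an outer dense fibre protein known from sperm. It was 639, 434 and 671 at ZT6 on RD, HF and HF.NOB and 1808, 1286 and 1861 at ZT18, and all night values lay above all day values. Slc25a30, a mitochondrial carrier, was 60.0 at ZT6 and 242 at ZT18 on HF.NOB, a length-relative fold of 1.98 where RD had 1.74 and HF 1.09. Pnpla3, a lipid acyltransferase and hydrolase that feeding raises in liver, was 199 at ZT6 and 262 at ZT18, a length-relative fold of 1.01 against 3.31 on RD and 1.71 on HF. Wsb1, an adaptor of a ubiquitin ligase, had almost the same fold everywhere, 0.98 on HF.NOB, 0.92 on RD and 0.90 on HF. Cys1, Rnase13, Lrrc52, Osgin1 and Prima1 completed the rule's set with Nfil3, with length-relative folds between 0.89 and 3.62 on HF.NOB. Prima1, which anchors acetylcholinesterase to membranes, was 10.7 at ZT6 and 83.2 at ZT18 on HF.NOB and 27.9 to 41.4 on the other days.

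Genes lower at night on all 3 diets were led by Dbp and Ciart. Cxcl10, an interferon-induced chemokine, was 93.4 at ZT6 and 24.9 at ZT18 on HF.NOB, a length-relative fold of -1.55, with -0.95 on RD and -1.01 on HF. Wnt5b, a secreted Wnt ligand, was 101 at ZT6 and 48.8 at ZT18, with -0.77, -1.34 and -0.79 on HF.NOB, RD and HF. Sqle, which carries out a rate-limiting step of cholesterol synthesis, was 88 at ZT6 and 40.2 at ZT18 with a length-relative fold of -1.29. Pik3ip1, a negative regulator of PI3 kinase, had -0.63, -0.56 and -0.61, with -0.47 on HF.NOB at its smallest under an alternative. The direction of 2 members rests on the length reference. Hdac9, a histone deacetylase that represses MEF2 in muscle, was 212 at ZT6 and 210.4 at ZT18 on HF.NOB, level as deposited and -0.71 relative to length (-0.36 at its smallest under another length), and Frem2 was 0.45 as deposited and -0.58 relative to length. Slc4a10 had -0.73, on 43 and 48 reads.

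Glucocorticoid targets stood lower at night on HF.NOB and higher on the other diets. In mice corticosterone peaks near dark onset. Of the 19 targets listed, 2 were past 1.5-fold higher and 7 lower on HF.NOB, where 21.7% and 12.3% of all genes were, with a length-relative median of -0.27, against 0.48 on RD and 0.53 on HF. Mt1, a metallothionein, was 382, 224 and 887 at ZT6 on RD, HF and HF.NOB and 1985, 349 and 201 at ZT18. The HF.NOB day library was above every library but the RD night one, and its length-relative folds were -1.36, 2.43 and 0.65 on HF.NOB, RD and HF. Cebpd, a transcription factor of the acute-phase response, was 375 at ZT6 and 125 at ZT18 (-1.60, against 1.32 on RD and 0.35 on HF). Lcn2, a secreted iron-binding protein, had 65 and 13 reads and a length-relative fold of -2.10. Fkbp5, a cochaperone of the receptor that was picked with its values known, was 1324, 719.6 and 1659 at ZT6 on RD, HF and HF.NOB and 4400, 1959 and 1515 at ZT18. Night exceeded day on RD and HF and not on HF.NOB, where the length-relative fold was -0.19. Zbtb16 (PLZF) went the other way, 665 at ZT6 and 2704 at ZT18, with 1.72 on HF.NOB, 0.70 on RD and 1.25 on HF.

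Immediate early genes, which activity and stress switch on within minutes, had a length-relative median of 0.41 on HF.NOB, with 6 of 22 past 1.5-fold higher and 2 lower, where 21.7% and 12.3% of all genes were. As deposited, 5 were past it higher and 5 lower, with a median of 0.23. With the mean length of transcripts the median was 0.06, so its size depends on the length used. Fos was 225 at ZT6 and 392 at ZT18 and Klf4 364 at ZT6 and 671 at ZT18, with length-relative folds of 1.12 and 1.01. Junb was lower at night, 431 at ZT6 and 157 at ZT18, with -0.99 on HF.NOB, -0.68 on RD and -0.43 on HF. Atf3, a stress-induced factor, was 304 at ZT6 and 430.3 at ZT18, a length-relative fold of 0.88 beside -0.23 on RD and 1.72 on HF. Heat shock proteins and chaperones had a median of -0.13 with 0 of 25 past 1.5-fold higher and 0 lower.

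Among fuel genes, a small set of switches differed while the pathways as lists stayed near level. Pdk4, the kinase that blocks pyruvate entry into the TCA cycle during fasting and fat feeding, was 11753, 22975 and 21693 at ZT6 on RD, HF and HF.NOB and 10258, 51473 and 39619 at ZT18. On both high-fat diets night exceeded day, with length-relative folds of 0.85 on HF.NOB and 1.17 on HF, and on RD it did not (-0.20). Ucp3, the uncoupling protein of muscle mitochondria, followed the same order, 2263, 3398 and 3237 at ZT6 on RD, HF and HF.NOB and 1557, 6642 and 5301 at ZT18, with 0.95, 0.99 and -0.53 on HF.NOB, HF and RD. Both genes are targets of PPARs, yet the 20 PPAR targets as a list had a median of -0.01, with 3 past 1.5-fold higher and 1 lower. Angptl4, another PPAR target picked with its values known, was 369 at ZT6 and 340.4 at ZT18 on HF.NOB and 202 and 721 on HF, length-relative folds of -0.07 and 1.82. Cpt1b, the muscle carnitine palmitoyltransferase, was 919 at ZT6 and 1631 at ZT18 (0.99, against -0.11 on RD and 0.18 on HF), and here the day library of HF.NOB was below all 5 others, which held 1207 to 1729. The 21 genes of fatty acid oxidation had a length-relative median of -0.09, with 0 past 1.5-fold higher and 1 lower. That one, Echs1, was 4682 at ZT6 and 2976 at ZT18 (-0.74), and under another length it came to -0.17 and was no longer past 1.5-fold.

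Several glucose genes had the night-to-day direction of the other diets at a smaller size. Pfkfb3, the enzyme that makes the allosteric activator of phosphofructokinase, was 20198, 11467 and 6060 at ZT6 on RD, HF and HF.NOB and 2883, 2933 and 5556 at ZT18. The night-over-day fold on RD and HF was -2.83 and -1.95 relative to length and on HF.NOB -0.41, as the HF.NOB day was the lowest day and its night the highest night. Ppp1r3c, which brings a phosphatase to glycogen, was 6715, 5228 and 10809 at ZT6 on RD, HF and HF.NOB and 24387, 16353 and 15446 at ZT18, with 0.72 on HF.NOB (down to 0.22 under another length) and 1.86 and 1.65 on RD and HF. Tbc1d1, a Rab GTPase-activating protein that holds back GLUT4, was 2034 at ZT6 and 5277 at ZT18, and its length-relative folds of 0.84, 0.95 and 0.80 on HF.NOB, RD and HF were alike. The 18 glycolytic genes had a median of -0.05 with 0 past 1.5-fold higher and 0 lower, and the 18 glycogen genes 0.09 with 1 higher and 1 lower. In the insulin list, Irs1 and Irs2, the adaptors of the insulin receptor, were far higher at night on HF.NOB. Irs1 was 1114, 1147 and 356 at ZT6 on RD, HF and HF.NOB and 1403, 1357 and 1818 at ZT18 and Irs2 609.8, 482 and 183 at ZT6 on RD, HF and HF.NOB and 593, 575 and 787 at ZT18. In both the HF.NOB day library was the lowest and the HF.NOB night library the highest of the 6, and the length-relative folds were 1.51 and 1.56.

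Lipid synthesis had no common direction, with 11 of 22 genes higher and a median of -0.01. Gpam, the acyltransferase that starts glycerolipid synthesis, was 4869, 8053 and 2252 at ZT6 on RD, HF and HF.NOB and 4496, 7708 and 7343 at ZT18, low in the HF.NOB day library alone. Fasn, fatty acid synthase, had 787 at ZT6 and 876 at ZT18 and a length-relative fold of -0.68 (-0.30 at its smallest under another length), where RD and HF had 0.35 and 0.36. Plin4, a lipid droplet coat protein, was higher at night on all 3 diets, 0.36, 0.69 and 0.47 on HF.NOB, RD and HF. Ppargc1a (PGC-1α), the coactivator of mitochondrial genes, picked with its values known, was 821 at ZT6 and 1558 at ZT18 with 0.39 on HF.NOB, 0.44 on RD and 0.82 on HF.

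The mitochondrial respiratory chain (MRC), complexes CI to CV, showed how the scales differ. As deposited, all 83 nuclear-encoded subunits measured, of 84 listed, were lower at night on HF.NOB, where 50.4% of all genes were, with a median of -0.89. Their summed scaled read count was 1017150 at ZT6 and 635898 at ZT18 on HF.NOB and 578609 to 678042 over the 5 libraries other than ZT6_HF.NOB. The subunits have short transcripts, with a median length of 1005 bases, and genes of those lengths had a median reference of -0.77. Relative to it, 68 of 83 were lower (45.6% of all genes) with a median of -0.16, 9 of them past 1.5-fold, where 12.3% of all genes were, and 0 past it upwards. The share past 1.5-fold was not above that of all genes, though it was above the 7.35% of genes averaging 50 or more. The length-relative median was -0.12 on RD and 0.04 on HF. By complex it was -0.17 for CI, -0.00 for CII, -0.15 for CIII, -0.14 for CIV and -0.23 for CV.

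The subunits with the largest length-relative differences were Atp5l and Atp5g1 of CV and Ndufb7 and Ndufb2 of CI. Atp5l was 6293, 5895 and 12105 at ZT6 on RD, HF and HF.NOB and 5513, 5944 and 5696 at ZT18, the day library of HF.NOB being about 2 times any other. Its length-relative fold of -1.62 rests on an annotated transcript of 6310 bases, and with the principal transcript in its place it was -0.19. Ndufb7 likewise had -1.28 and -0.24. With principal transcripts 3 of the 83 subunits were past 1.5-fold lower in place of 9, 66 were lower, and the median was -0.12. Of 2 CV genes picked with their values known, Atp5b, the catalytic β subunit, was 96722 at ZT6 and 75747 at ZT18 (-0.35 as deposited, 0.03 relative to length) and Atp5d was 12782 at ZT6 and 6879 at ZT18 (-0.89 and -0.28). Sdha of CII, whose longest transcript has 2900 bases, differed by -0.09 as deposited.

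The 13 subunits encoded in mitochondrial DNA were mixed as deposited, with 8 lower at night, 5 higher and a median of -0.12. On that scale 3 were past 1.5-fold higher and 2 lower, where 23.4% and 21.4% of all genes were. Their length-relative median was 0.55, with 6 past 1.5-fold higher and 0 lower. mt-Nd5 of CI was 179271 at ZT6 and 360468 at ZT18, a fold as deposited of 1.01, and mt-Co1 of CIV was 733036 at ZT6 and 933290 at ZT18 (0.35). Lower as deposited were, among others, mt-Nd3 (-1.23) and mt-Co3 (-0.79). These 13 genes did not enter the length reference, which may not apply to transcripts cut from a mitochondrial precursor. Short nuclear transcripts of other machines went with the MRC. All 85 cytosolic ribosomal proteins were lower as deposited, with a median of -1.04 that became -0.33 relative to length. Relative to length 19 were past 1.5-fold lower, where 12.3% of all genes were. With the mean transcript length 11 were, and with the principal transcript 7. All 78 mitochondrial ribosomal proteins were lower as deposited as well, with medians of -0.74 and -0.21. Proteasome subunits had -0.68 and -0.24, with 29 of 39 lower on the length-relative scale. On that scale cytosolic ribosomal proteins had medians of 0.00 on RD and -0.07 on HF, and proteasome subunits 0.03 and 0.07. Psmb8 and Psmb9, the immunoproteasome subunits that interferon induces, were the lowest of the proteasome list, at 383 at ZT6 and 157 at ZT18 (-0.90) and 195 at ZT6 and 87 at ZT18 (-0.99, or -0.56 under another length).

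**Figure D3:**
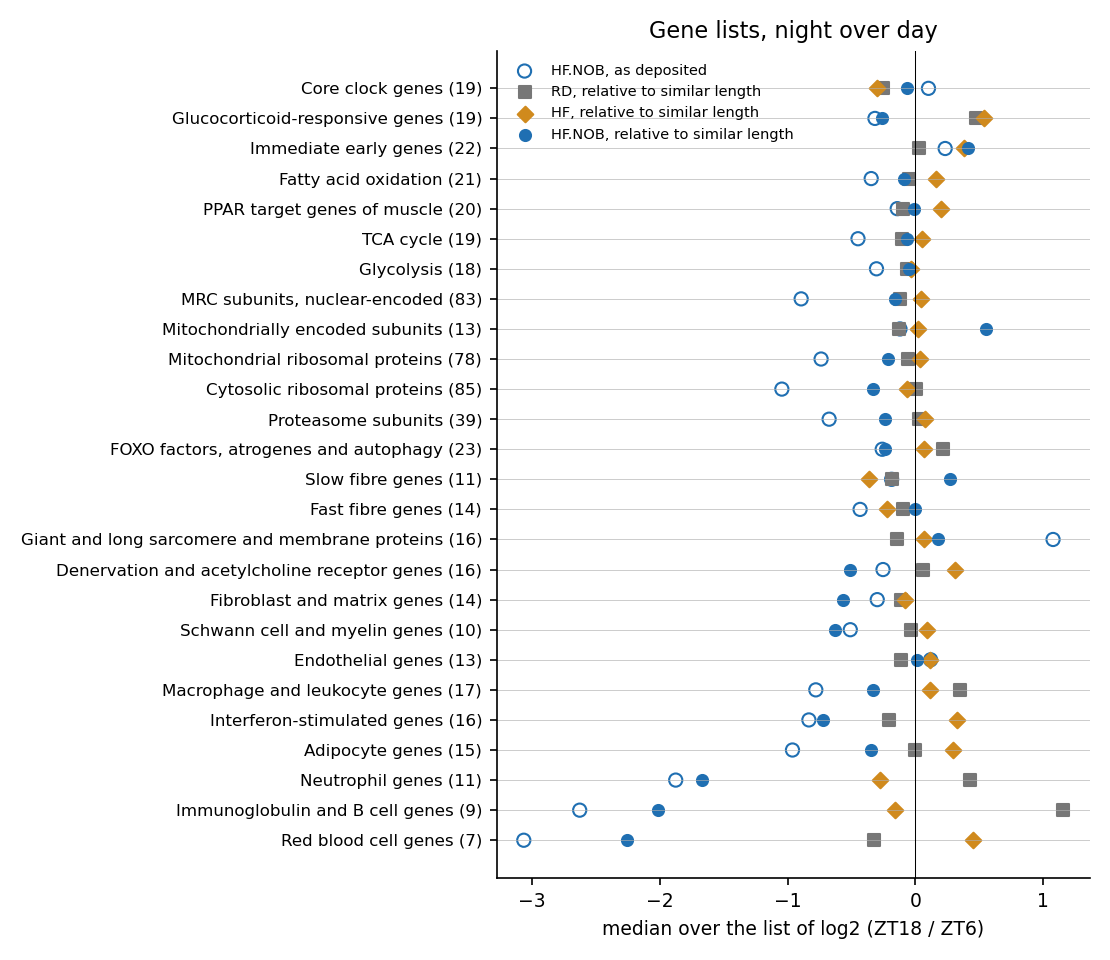
Median log2 ratio of ZT18 over ZT6 over the measured members of 26 gene lists (rows, number of members in brackets), as deposited on HF.NOB (open circles) and relative to genes of similar length on RD, HF and HF.NOB (filled marks). The MRC list sits at -0.89 as deposited and -0.16 relative to length and the cytosolic ribosomal list at -1.04 and -0.33, giant proteins sit at 1.08 and 0.17, and red blood cell, immunoglobulin and neutrophil genes stay far to the left on both scales.

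Genes of slow fibres stood somewhat higher at night on HF.NOB and lower on the other diets. Relative to length, 10 of 11 were higher with a median of 0.27, none past 1.5-fold, where the medians were -0.18 on RD and -0.36 on HF. Myh7, the slow myosin heavy chain, picked with its values known, was 25607, 32810 and 21509 at ZT6 on RD, HF and HF.NOB and 23731, 21511 and 37585 at ZT18. Its HF.NOB night value was the highest of the 6 libraries and the day value the lowest, and the length-relative fold was 0.31, against -0.08 on RD and -0.59 on HF. As deposited the list's median was -0.19, so that its direction rests on the length reference. Tnnc1, slow troponin C, was 5621 at ZT6 and 4166 at ZT18, -0.43 as deposited and 0.42 relative to length. Fast fibre genes had a length-relative median of -0.00, with Actn3 at 0.34 and Myh1 (fast IIX myosin) at -0.39.

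Giant proteins of the sarcomere lay at the other end of the length range. The 16 genes listed had a median length of 15134 bases, and 15 were higher at night as deposited with a median of 1.08, which became 0.17 relative to length, the same as the 0.17 of all protein-coding genes above 12000 bases. Ttn (titin) was 738896, 583147 and 191624 at ZT6 on RD, HF and HF.NOB and 598107, 531062 and 600870 at ZT18, so the day library of HF.NOB held the least by far. Neb (nebulin) was 111366 at ZT6 and 345267 at ZT18. Dst (dystonin), though as long, went the other way, 2813 at ZT6 and 1968 at ZT18, -0.51 as deposited and -1.55 relative to length.

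Genes that denervated muscle switches on were mostly lower at night on HF.NOB, with a length-relative median of -0.51 and 7 of 16 past 1.5-fold lower, where 12.3% of all genes were, against medians of 0.06 on RD and 0.31 on HF. As deposited the median was -0.25, with 5 past 1.5-fold lower and 2 higher. Sln, sarcolipin, the inhibitor of the calcium pump, was 731, 635 and 3858 at ZT6 on RD, HF and HF.NOB and 1153, 1441 and 754 at ZT18. Its HF.NOB day value was over 2 times the highest of the others, and its length-relative fold was -1.74 on HF.NOB and 0.64 and 1.18 on RD and HF. Chrna1, the acetylcholine receptor α subunit, was 1467 at ZT6 and 942 at ZT18 (-0.78). Musk, the kinase that organizes the neuromuscular junction, went the other way, at 1668, 1415 and 371 at ZT6 on RD, HF and HF.NOB and 1869, 1757 and 1681 at ZT18, low in the HF.NOB day library alone, with a length-relative fold of 2.19. Atrophy and autophagy genes had a median of -0.24, with 7 of 23 past 1.5-fold lower and 0 higher, where 12.3% and 21.7% of all genes were. Sesn1, a stress-induced inhibitor of mTORC1, was 1088 at ZT6 and 506 at ZT18 (-1.16), and the lysosomal protease Ctsl was 4403 at ZT6 and 2236 at ZT18 (-1.48). Foxo1, picked with its values known, was 829 at ZT6 and 842 at ZT18 on HF.NOB, level as deposited and -0.70 relative to length, against 1.23 on RD and 0.71 on HF. Myod1, the myogenic factor known to be a clock target, was 514, 438 and 888 at ZT6 on RD, HF and HF.NOB and 1347, 1016 and 960.1 at ZT18, length-relative folds of 0.57, 1.38 and 1.21 on HF.NOB, RD and HF.

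Transcripts of red cells, B cells and neutrophils were lower at night on HF.NOB, by more than any muscle list. All 7 red blood cell genes were past 1.5-fold lower, with a length-relative median of -2.25 (-0.32 on RD, 0.45 on HF). Their summed value was 14631 at ZT6 and 1714 at ZT18 on HF.NOB and 1582 to 5458 over the 5 libraries other than ZT6_HF.NOB. Hbb-bt, a β-globin, was 634, 143 and 1996 at ZT6 on RD, HF and HF.NOB and 412, 232 and 182 at ZT18. Hba-a1, an α-globin picked with its values known, was 3269 at ZT6 and 395 at ZT18. Globin genes have close copies between which reads can be split. Immunoglobulin and B cell genes had 9 of 9 past 1.5-fold lower, with a median of -2.02, and summed to 15010 in the HF.NOB day library and 3914 to 7152 elsewhere. Igkc, the κ light-chain constant region, was 49.4, 169.7 and 2919 at ZT6 on RD, HF and HF.NOB and 361, 149 and 147 at ZT18, and the variable segment Igkv3-2 had 659 at ZT6 and 9.56 at ZT18 on HF.NOB and 2 to 24.9 on the other diets. Reads of immunoglobulin segments can be shared between near-identical copies, so single segments are uncertain.

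Neutrophil genes followed, with 10 of 11 past 1.5-fold lower and a median of -1.67. Sums were 757 at ZT6 and 106 at ZT18 on HF.NOB, and 106 to 535 over the libraries other than ZT6_HF.NOB. The alarmin subunits S100a8 and S100a9 were 204 at ZT6 and 6.69 at ZT18 and 224 at ZT6 and 4.78 at ZT18. Ngp had 10 reads at ZT6 and 0 at ZT18, so that its night value was at least 4.65-fold lower by a floor of 3 reads. Interferon-stimulated genes had a median of -0.73 with 10 of 16 past 1.5-fold lower, against -0.21 on RD and 0.32 on HF. Irf7, the master factor of the interferon response, was 191, 588 and 843 at ZT6 on RD, HF and HF.NOB and 165, 504 and 318 at ZT18, and Isg15, a ubiquitin-like modifier, was 284 at ZT6 and 59.3 at ZT18 (-1.46). Macrophage genes differed less, with a median of -0.33 and 3 of 17 past 1.5-fold lower, near the 12.3% of all genes, while as deposited 10 were and the median was -0.78.

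Fat, matrix and nerve transcripts went the same way at a smaller size. Adipocyte genes had a length-relative median of -0.35 with 5 of 15 past 1.5-fold lower, where 12.3% of all genes were (-0.96 and 11 as deposited), led by Retn, resistin, 211 at ZT6 and 43 at ZT18 (-1.49), Cfd, adipsin, 2807 at ZT6 and 635 at ZT18 (-1.36), and Fabp4, the fatty acid binding protein of adipocytes and capillaries, 8500 at ZT6 and 3767 at ZT18 (-1.27, or -0.44 under another length). All 14 fibroblast and matrix genes were lower relative to length, 7 past 1.5-fold, with a median of -0.57. As deposited, 9 were lower and 5 higher, 3 past 1.5-fold lower, with a median of -0.30. Col3a1 was 3482 at ZT6 and 2171 at ZT18 and also lower on RD (-0.53) and HF (-0.37), with -1.10 on HF.NOB. All 10 Schwann cell genes were lower too, with a median of -0.63 and 6 past 1.5-fold. Endothelial genes had a median of 0.01 with 7 of 13 higher. The part of blood, fat, nerve and connective tissue in the other differences was not tested.

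The genes furthest higher on HF.NOB alone were low in the day library and, except for Ppara and Uprt, within 1.5-fold of level on RD and HF. Hipk2, a nuclear kinase that controls transcription and cell survival, on chromosome 6 at 38694390 to 38876165 (GRCm38), was 5258, 4793 and 377 at ZT6 on RD, HF and HF.NOB and 4863, 5038 and 5509 at ZT18. Its night value was 14.6-fold the day value as deposited, and its length-relative fold of 3.16 stood beside -0.09 on RD and 0.10 on HF. Foxn3, a forkhead repressor, was 191 at ZT6 and 1918 at ZT18, with 1608 to 1918 in the 5 other libraries. Nt5c1a, the muscle nucleotidase that forms adenosine from AMP, was 37.3 at ZT6 and 430.3 at ZT18, with 410.2 to 547 in the others and the largest length-relative fold of the named genes, 4.13. Ppara, the receptor of fatty acids that drives oxidation genes, was 386, 361 and 54.7 at ZT6 on RD, HF and HF.NOB and 539, 633 and 497 at ZT18. The night-over-day direction held on all diets, but 3.17 on HF.NOB against 0.46 on RD and 0.80 on HF came from the day library. Pdpr, the regulatory subunit of pyruvate dehydrogenase phosphatase, was 1039 at ZT6 and 6685 at ZT18 (5835 to 6685 elsewhere), and Best3, a bestrophin chloride channel, was 112 at ZT6 and 685 at ZT18 (531 to 757 elsewhere). Uprt, Gdap10, BC002189 and Hmgb1-ps8 had length-relative folds of 3.16, 3.10, 3.92 and 3.17. The last is named a pseudogene, whose reads can be shared with its parent. These genes span lengths from 598 bases to 7705.

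Among the genes with the lowest relative folds, the most abundant was Lars2, mitochondrial leucyl-tRNA synthetase, on chromosome 9 at 123366927 to 123462666 (GRCm38), with 61349, 6225 and 39778 at ZT6 on RD, HF and HF.NOB and 5792, 7108 and 6605 at ZT18. It was high in 2 day libraries, RD and HF.NOB, and between 5792 and 7108 in the 4 others, a length-relative fold of -2.65 on HF.NOB, -3.42 on RD and 0.18 on HF. Gm26917 and Gm42418, neighbouring noncoding genes on chromosome 17 picked with their values known, had the same 2 high libraries. Gm26917 was 3648, 467 and 2650 at ZT6 on RD, HF and HF.NOB and 377, 599.5 and 563 at ZT18 and Gm42418 1016, 315 and 1031 at ZT6 on RD, HF and HF.NOB and 257, 292 and 249 at ZT18. The difference of these 3 genes was therefore shared with RD and absent on HF, and whether it belongs to the hour was not tested.

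**Figure D4:**
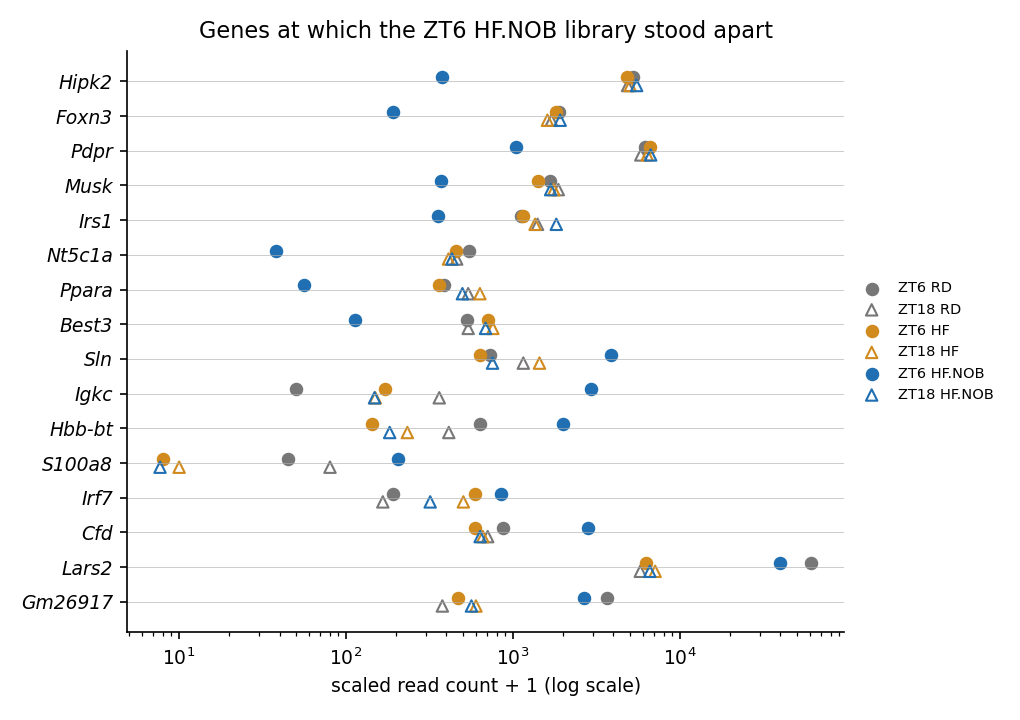
Scaled read count plus 1 (horizontal axis, log scale) of 16 genes (rows) in each of the 6 libraries, circles for ZT6 and triangles for ZT18, with RD in grey, HF in orange and HF.NOB in blue. The filled blue circle of the HF.NOB day library lies left of all other marks from Hipk2 to Best3 and right of them from Sln to Cfd, and for Lars2 and Gm26917 it lies beside the RD day library.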

How the data were processed

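Total RNA of calf muscle was sequenced, and per the labels the reads were mapped to mm10 with TopHat2 2.0.12, Cufflinks 2.2.1 also being listed in the submitters' processing notes. For the strand setting of the counting, nothing is given in the sources. Per the file, the table deposited by the authors is named as read counts, but its values behave as a normalised signal, whole reads times 1 factor per library, and every value came out as a whole number of reads within 0.001. Columns were matched to libraries by name, and no test was made with 1 library a side. The fold is log2((ZT18 + 1)/(ZT6 + 1)) for the 20311 genes with a mean of 1 or more. The length-relative fold subtracts the median fold in 50 bins of transcript length (GENCODE M21, longest transcript, 99.4% of identifiers matched without version), set by 11505 genes averaging 50 or more. Left out of it were the listed MRC subunits, nuclear-encoded and mitochondrially encoded, the MRC assembly factors, the mitochondrial ribosomal proteins and the TCA cycle genes.

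Named were all genes of the clock lists, up to 4 members with the largest absolute length-relative fold in each other list, the 8 highest and 8 lowest genes, the 10 highest and 10 lowest by the smallest fold over the 3 diets, and the 8 furthest above and below both other diets. Other genes are marked, and a few genes counted in the lists are not reported here by name. The comparison and its 56 lists were chosen with earlier results of these data known. Alternatives covered scaling (TMM from edgeR 4.0.16 in R 4.3.3), pseudocounts, filters, thresholds, lengths, bins and GC content, and those with principal transcripts or a protein-coding reference were chosen after seeing the data. The code ran in Python 3.11.15 with NumPy 2.4.6, SciPy 1.17.1, pandas 2.3.3 and Matplotlib 3.10.9 and was tested on simulated data with planted folds. Intervals are exact, at 95%. With 23248663 and 31837501 reads, genes below a value of about 10 carry wide counting error.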

Additional observations from a re-analysis of the deposited data

Results flagged for a closer look

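Several named genes differed past 1.5-fold in one direction on HF.NOB, on both scales, and in the other direction on another diet relative to length. None of these differences was tested, as each side is 1 library. Among glucocorticoid targets, Lcn2 was -2.10 on HF.NOB with 2.10 on RD and 0.71 on HF, Mt1 was -1.36 with 2.43 on RD and 0.65 on HF, and Cebpd was -1.60 with 1.32 on RD. Depp1, a FOXO target, was -0.86 with 1.07 on HF. Sln was -1.74 on HF.NOB with 0.64 on RD and 1.18 on HF.

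Of red cell genes, Slc4a1 (band 3) was -4.82 on HF.NOB and 0.83 on HF, and Hbb-bt was -2.60 and 0.73. Of leukocyte genes, S100a8 was -3.89 on HF.NOB and 0.89 on RD, Retnlg -3.34 and 2.26, Igkc -3.45 and 2.90, Jchain (the joining chain of secreted IgA and IgM) -2.95 and 2.25, and Iglc1 -4.61 and 1.15. Igkv3-2 was -5.12 on HF.NOB, 2.43 on RD and 1.18 on HF. Cd79a, a part of the B cell receptor, was -4.33 on HF.NOB and 1.37 on HF, with 21 reads at ZT6 and 0 at ZT18 on HF.NOB, at least 9.76-fold lower by the floor of 3 reads. Oas1a, an interferon-induced synthetase, was -1.57 and 0.73 on HF.NOB and HF, and Cyp2e1, a cytochrome abundant in liver, -1.14 and 2.02.

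In the other direction, Fbxl21, a ubiquitin ligase component that acts on cryptochromes, was 1.29 on HF.NOB and -0.66 on HF, on 1 and 5 reads at ZT6 and ZT18 of HF.NOB. Uprt was 3.16 on HF.NOB and -0.70 on RD.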

How the results depend on the processing

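Counts past a threshold depended on the filter and the threshold. With a minimum mean of 10, the genes past 1.5-fold at ZT18 on HF.NOB were 2743 higher and 2669 lower as deposited, and 1863 and 1340 relative to length. At 2-fold they were 2496 and 1842 as deposited, and 2836 and 1122 relative to length. With no filter, 7971 were higher relative to length, 72.6% of those past 1.5-fold in either direction, against 63.7% in the main reading, 58.2% with a minimum mean of 10 and 70.2% with a pseudocount of 5. No other alternative moved these counts by more than 1.5 times. The median of the MRC subunits as deposited was -0.82 with TMM factors. Igf1 reversed, from -0.65 to 0.37 relative to length, with the principal transcript. Of 325 list medians and named-gene folds past 1.5-fold, on either scale, 324 had one sign in every alternative and 270 stayed past 1.5-fold in every one.

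No paired analysis was possible because each group is 1 library without a replicate number, and none was left out for the same reason. The limits are the single library a side, the number of mice in each, which the labels do not give, and the ZT6_HF.NOB library, which is the shallowest and carries the length trend, so that every difference read against it has that library in common. Lengths come from annotation and not from the transcripts present, and a gene whose annotated length is wrong for muscle gets the wrong reference. Low counts limit the genes under a mean of 10.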

Other observations

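Regulators of mitochondrial content, myokines and antioxidant enzymes differed gene by gene. Ppargc1b (PGC-1β), a coactivator of oxidative genes, was 349.6, 482 and 144 at ZT6 on RD, HF and HF.NOB and 265, 452 and 368 at ZT18, and the HF.NOB day library was the low one (length-relative fold 1.33, with -0.40 on RD and -0.07 on HF). Tfam, the packaging factor of mitochondrial DNA, was 1668 at ZT6 and 1159 at ZT18 (-0.62, or -0.31 under another length). Mstn (myostatin), the inhibitor of muscle growth, was 2713, 1800 and 1488 at ZT6 on RD, HF and HF.NOB and 2208, 1152 and 1905 at ZT18. Night was above day on HF.NOB and below it on RD and HF, with length-relative folds of 0.58, -0.29 and -0.64, though the first came to 0.09 under another length. Igfbp5, an IGF-binding protein of muscle, was 22690, 22667 and 12130 at ZT6 on RD, HF and HF.NOB and 21357, 25704 and 29759 at ZT18, with the lowest and the highest value both on HF.NOB (0.79 relative to length). Sod1, the cytosolic superoxide dismutase, was 5685 at ZT6 and 3026 at ZT18, -0.96 relative to length and -0.01 with the principal transcript, so that its size rests on the length assigned. Nqo1, a quinone reductase driven by NRF2, was 898 at ZT6 and 1042 at ZT18 (0.74, or 0.22 under another length, with -0.01 on RD and -0.10 on HF).

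Liver genes were at or near 0 in both HF.NOB libraries apart from Cyp2e1. Gc, the vitamin D binding protein, had 0 and 1.91 on HF.NOB and 127 in the HF night library, and Apoa1, the main protein of HDL, had 1.33, 1.91 and 40.6, while both were at 0 in the other 3 libraries. Of the 8 tendon genes, Comp, a matrix protein of tendon and cartilage, was 503 at ZT6 and 231 at ZT18 on HF.NOB (-0.85), and the list had a length-relative median of -0.20. Smooth muscle genes had -0.23, with Cnn1 (calponin) at 45.3 at ZT6 and 16.3 at ZT18. Cirbp and Rbm3, RNA-binding proteins that cooling induces, were 1506 at ZT6 and 1145 at ZT18 and 5030 at ZT6 and 3381 at ZT18, length-relative folds of 0.21 and -0.37.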
